A study of Homo sapiens with 6 samples.

Results

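The genes described here are 10 components of bone morphogenetic protein (BMP) signalling, taken by symbol from a count table of 55882 genes: ID1, ID2, ID3 and ID4, the inhibitory SMADs SMAD6 and SMAD7, the ligands BMP2, BMP4 and BMP7, and the secreted antagonist GREM1. All 10 symbols were in the table, and all 10 passed the filter on low counts that left 22352 genes for testing. The cells were DIvA cells, a U2OS-derived osteosarcoma line that carries the restriction enzyme AsiSI in a form that 4-hydroxytamoxifen (4-OHT) brings into the nucleus, where it cuts DNA. Polyadenylated RNA was sequenced from 3 libraries of cells with wild-type p53 (p53 WT) and 3 libraries of cells in which p53 was knocked out (p53 KO), and both groups were kept in 300 nM 4-OHT for 5 h. The AsiSI fusion and the 4-OHT were therefore common to both groups, and cells without 4-OHT were not analysed here. The labels do not give the number of knockout clones or say whether the replicates were separate cultures, so p-values measure the spread between these libraries only, which may be technical.

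BMPs are secreted dimers that bring together type I and type II receptor kinases, which phosphorylate SMAD1, SMAD5 and SMAD9. These enter the nucleus with SMAD4 and switch on target genes, among which the ID genes are the classic early ones. ID proteins carry a helix-loop-helix domain without a DNA-binding region, and they hold E proteins such as TCF3 away from DNA, which keeps cells in a proliferating, undifferentiated state. SMAD6 and SMAD7 are themselves induced by the pathway and block it at the receptors and SMADs, while GREM1 binds BMP2, BMP4 and BMP7 outside the cell. In bone, BMP2, BMP4 and BMP7 drive mesenchymal precursors towards osteoblasts, the lineage that osteosarcoma resembles.

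The sequences that lie just before the transcription start are shown for the most abundant pair, ID1 and ID3, and for ID4, SMAD6 and SMAD7. ID4, SMAD7 and SMAD6 had the largest decreases of the 10 genes in p53 KO. The decrease of SMAD6 did not pass the edgeR test used below (adjusted p = 0.0906), and ID1, ID2 and BMP2 also had lower means. Each is the 250 bases upstream of the first start listed for the gene in RefSeq on GRCh38.p14, a newer build than that of the count table. The bases are printed 5′ to 3′ on the gene's own strand. They lie at chr20:31605039-31605288 (plus strand), chr1:23559502-23559751 (minus strand), chr6:19837120-19837369 (plus strand), chr15:66701986-66702235 (plus strand) and chr18:48950966-48951215 (minus strand). Capitals mark the SMAD box GTCT on either strand, read as GTCT or AGAC.
ID1: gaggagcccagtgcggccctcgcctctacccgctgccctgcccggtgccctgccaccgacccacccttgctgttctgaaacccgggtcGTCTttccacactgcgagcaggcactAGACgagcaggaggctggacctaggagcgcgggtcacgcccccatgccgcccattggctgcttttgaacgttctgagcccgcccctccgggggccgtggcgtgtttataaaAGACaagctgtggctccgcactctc
ID3: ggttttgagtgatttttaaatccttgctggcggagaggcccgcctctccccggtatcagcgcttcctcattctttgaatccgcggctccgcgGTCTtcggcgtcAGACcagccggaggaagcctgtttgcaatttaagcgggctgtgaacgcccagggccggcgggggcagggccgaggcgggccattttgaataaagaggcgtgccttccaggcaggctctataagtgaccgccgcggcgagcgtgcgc
ID4: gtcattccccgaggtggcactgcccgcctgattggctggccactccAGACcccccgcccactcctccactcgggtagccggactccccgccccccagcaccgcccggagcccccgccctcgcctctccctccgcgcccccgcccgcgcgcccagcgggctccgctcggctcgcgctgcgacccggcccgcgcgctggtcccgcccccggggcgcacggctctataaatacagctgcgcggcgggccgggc
SMAD6: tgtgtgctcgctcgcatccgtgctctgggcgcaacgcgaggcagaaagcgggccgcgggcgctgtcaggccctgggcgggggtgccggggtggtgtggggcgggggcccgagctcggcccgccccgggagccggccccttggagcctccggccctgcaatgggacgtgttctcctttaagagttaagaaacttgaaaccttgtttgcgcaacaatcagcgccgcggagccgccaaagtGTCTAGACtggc
SMAD7: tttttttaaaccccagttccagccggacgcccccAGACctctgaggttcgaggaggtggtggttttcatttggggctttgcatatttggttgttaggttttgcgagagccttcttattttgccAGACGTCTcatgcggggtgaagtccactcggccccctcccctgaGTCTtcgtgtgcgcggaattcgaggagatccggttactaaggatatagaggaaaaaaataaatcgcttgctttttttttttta

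Upstream sequences were on hand for 8 of the 10 genes, all but BMP2 and BMP7. For each of the 8 only the window of the first listed start was searched, while the windows over all genes were not limited in this way. A motif near another start of a gene, or outside the 250 bases, would thus be missed, so absence here holds for these windows alone. At least 1 GTCT box was present in all 8, and in 77.5% of 35116 such windows over all genes, so its presence did not set these genes apart. The SMAD palindrome GTCTAGAC, which joins a GTCT box to its reverse complement and so overlaps both, was present in SMAD6 alone of the 8, with its first base 12 bases before the start, and in 0.182% of all windows. SMAD7 held 4 boxes, of which 2 adjoin, together beginning 127 bases before the start. The GC-rich SMAD element GGCGCC, searched on both strands, was in the windows of BMP4 and GREM1 and in 16.4% of all windows. The E-box CANNTG, the site of the factors that ID proteins restrain, was present in ID2, ID4 and SMAD7 and in 61.8% of all windows. The letters TATAAA, on either strand, were present in ID1 and ID4 and in 10.7% of all windows. An exact consensus p53 response element was found in none of the 8 windows and in 0.0256% of all. In the authors' deposited table, 124 of 35987 genes (0.345%) were marked as intersecting a p53 cistrome, and none of the 10 genes was among them.

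Depth ranged from 20393909 to 79767519 counts per library. An approximate upper limit for a count of 0, set at 3 counts, came to 0.0381 to 0.150 CPM (counts scaled to library size). CDKN1A, the p53-induced cell cycle inhibitor, had 521 to 572 CPM in p53 WT and 41.8 to 49.1 CPM in p53 KO libraries, and so separated the groups as labelled. The summed level of 8 mesenchymal and osteoblast markers was 7088 to 7545 CPM in p53 WT and 3902 to 4267 CPM in p53 KO. Of the 8, 1 was higher and 6 lower (87.5% called, beside 26.5% of all tested genes). The sum weighs abundant genes most, such as VIM (mean 3333 CPM in p53 WT and 1618 in p53 KO) and FN1 (1726 and 482). COL1A1 was the higher one (688 and 930). The mean level of COL1A2 was near 0 in both groups (0.315 and 0.494 CPM). The summed level of 4 epithelial markers was 7.42 to 11.3 CPM in p53 WT and 12.4 to 20.4 CPM in p53 KO, and none of them passed at an adjusted p under 0.05 by edgeR. The other sums stayed at or under 5.01 CPM (3 endothelial markers) and 2.25 CPM (4 leukocyte markers) in every library. The part of these marker levels in the results below was not tested, and in bulk RNA fewer cells of a type and less RNA per cell cannot be told apart.

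ID1 and ID3 made up nearly all ID transcripts. Per kilobase of exon (GENCODE 29 exon lengths), ID1 stood at 150 ± 28.9 CPM per kb and ID3 at 76.1 ± 11.8 in p53 WT (SD, n = 3), and at 139 ± 23.9 and 99.2 ± 4.63 in p53 KO (SD, n = 3). Together they were 94.5% to 95.9% of the ID family CPM in p53 WT and 96.5% to 97.0% in p53 KO. In p53 WT the order below them was SMAD7 (6.61 CPM per kb), ID4 (3.69), BMP4 (3.41), ID2 (3.23), SMAD6 (1.53), BMP2 (1.51), BMP7 (1.06) and GREM1 (0.0306). The library ranges of neighbours in that order overlapped for ID4 with BMP4, BMP4 with ID2, and SMAD6 with BMP2. In p53 KO the order below ID1 and ID3 was BMP4 (4.41 CPM per kb), SMAD7 (4.28), ID2 (3.02), ID4 (2.12), BMP7 (1.42), BMP2 (1.28), SMAD6 (1.03) and GREM1 (0.0800). Neighbours overlapped there for BMP4 with SMAD7, ID2 with ID4, ID4 with BMP7, BMP7 with BMP2, and BMP2 with SMAD6. GREM1 was last in both groups, below every other library range.

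**Figure D1:**
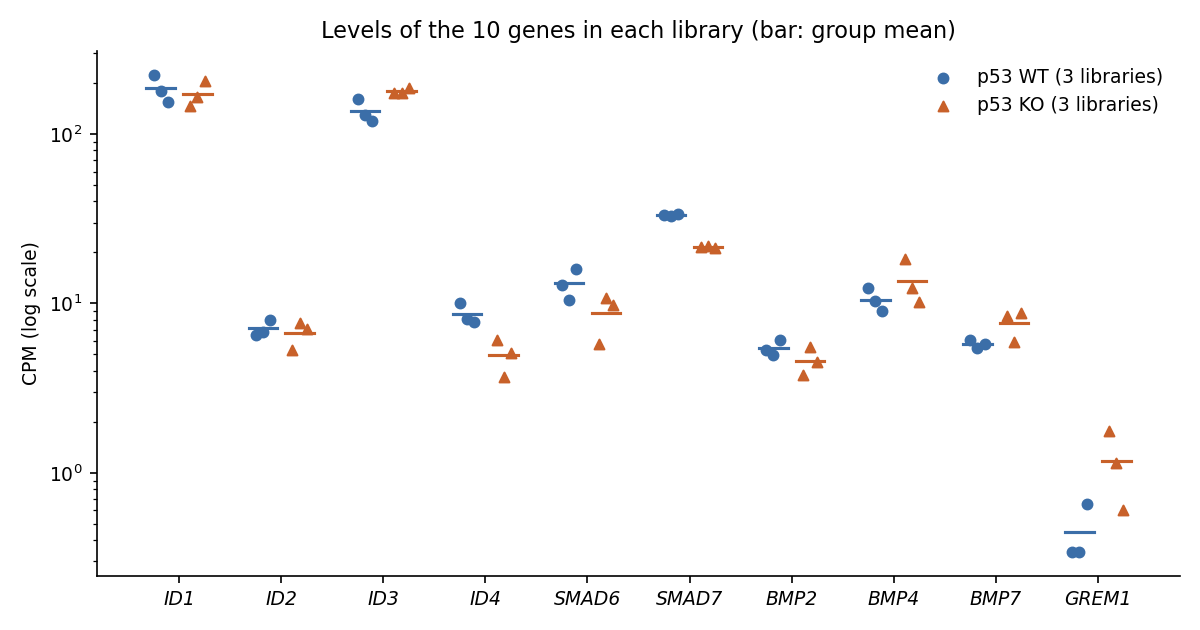
Levels in CPM (log axis) of each of the 10 genes in the 3 p53 WT libraries (blue circles) and 3 p53 KO libraries (orange triangles), with bars at the group means. Only ID3, ID4 and SMAD7 have ranges that do not overlap, and CPM values are not comparable between genes of different length.

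Of the 10 genes, ID3 rose and ID4 and SMAD7 fell in p53 KO, at an adjusted p under 0.05 by the quasi-likelihood test of edgeR over all genes. These 3 of 10 (30.0%) stood beside 26.5% of all tested genes, where 12.1% were higher and 14.4% lower. The groups were fully separated, library by library, for the same 3 genes (30.0%), beside 40.8% of all tested genes. The shares of the 10 genes were thus near or below the background, and their median log2 fold change (p53 KO over p53 WT) was -0.11, against 0.0052 over all tested genes. ID4 and SMAD7 were the genes of the 10 with an adjusted p-value under 0.05 in the authors' deposited table.

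Values per library are listed in the order of replicates 1, 2 and 3 of each group. ID3, an inhibitor of E proteins that is prominent in lymphoid and vascular cells, had 161, 130 and 120 CPM in p53 WT and 173, 174 and 188 CPM in p53 KO. Every p53 KO library lay above every p53 WT library. The fold was 1.30, or 0.38 on the log2 scale (SE 0.11, adjusted p = 0.0219). The call was lost without p53 WT replicate 2 (0.34, adjusted p = 0.115) or p53 WT replicate 3 (0.29, adjusted p = 0.125), or with the median change of neighbouring genes removed (0.29, adjusted p = 0.0941). Over all alternatives the adjusted p ran from 0.0049 to 0.125. The authors' deposited table, with its sign turned to p53 KO over p53 WT, gave 0.40 with an adjusted p-value of 0.149.

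ID1, the best known BMP-induced member of the family, had 224, 179 and 153 CPM in p53 WT and 147, 165 and 204 CPM in p53 KO. The groups overlapped over most of their range. Its log2 fold change of -0.11 did not pass (adjusted p = 0.633), with a 95% interval from -0.42 to 0.19. Within each group the libraries ranked alike for ID1 and ID3, and their ratio was therefore taken within each library, a choice made after the values were seen. There were 1.39, 1.38 and 1.28 ID1 counts per ID3 count in p53 WT, and 0.847, 0.948 and 1.09 in p53 KO. All 3 p53 WT ratios were above all 3 p53 KO ratios, and the log2 ratio differed by -0.50 (exact permutation p = 0.1, two-sided, the smallest that 3 against 3 allows). The ratio does not depend on library size or scaling. The same ratio of SMAD7 to SMAD6 counts overlapped between the groups (2.12 to 3.11 in p53 WT and 2.03 to 3.74 in p53 KO, exact permutation p = 1). So did that of BMP4 to BMP2 (1.47 to 2.32 and 2.24 to 4.86, exact permutation p = 0.3). With 3 ratios computed, no p could pass an adjustment.

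**Figure D2:**
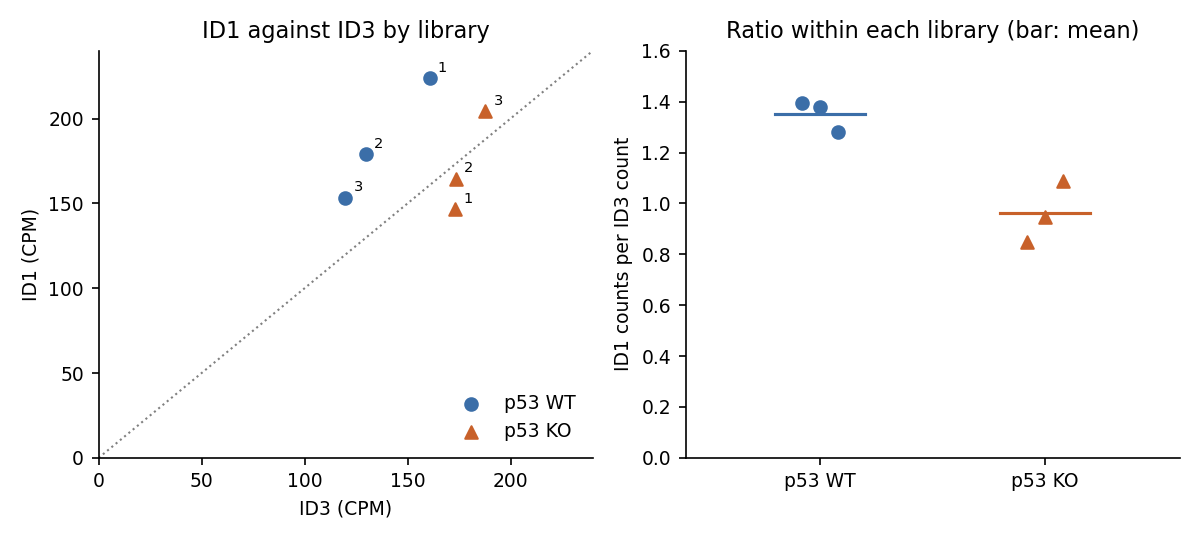
Left, ID1 against ID3 in CPM for each library, numbered by replicate, with a dotted line at equal values. Right, ID1 counts per ID3 count in each library with bars at the group means; the p53 WT libraries lie at 1.28 to 1.39 and the p53 KO libraries at 0.847 to 1.09.

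ID4, the family member linked to neural and mammary development, had 10.0, 8.10 and 7.81 CPM in p53 WT and 6.12, 3.69 and 5.11 CPM in p53 KO. All p53 KO libraries lay below all p53 WT libraries. It was 1.74-fold lower in p53 KO, or -0.80 on the log2 scale (SE 0.23, adjusted p = 0.0199). The call was lost without p53 WT replicate 1 (-0.68, adjusted p = 0.0899), p53 WT replicate 2 (-0.85, adjusted p = 0.0504) or p53 KO replicate 2 (-0.62, adjusted p = 0.0698), and over all alternatives the adjusted p ran from 0.00619 to 0.0899. The authors' deposited table gave -0.77 with the sign turned, at an adjusted p-value of 0.00441. ID2, which also binds E proteins and acts in many progenitor cells, had 6.53, 6.82 and 8.02 CPM in p53 WT and 5.32, 7.62 and 7.02 CPM in p53 KO. The groups overlapped, and the log2 fold change was -0.10 (95% interval -0.56 to 0.36, adjusted p = 0.791). The 4 ID genes together summed to 289 to 401 CPM in p53 WT and 332 to 404 CPM in p53 KO libraries.

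SMAD7, which recruits ubiquitin ligases to BMP and TGF-beta receptors, had 33.1, 32.7 and 33.9 CPM in p53 WT and 21.4, 21.9 and 21.3 CPM in p53 KO. The libraries of each group were nearly alike, and the gap between the groups was many times their spread. The level was 1.54-fold lower in p53 KO, or -0.63 on the log2 scale (SE 0.12, adjusted p = 0.00122), and the call held whichever of the 6 libraries was omitted. It was lost, at -0.10 (adjusted p = 0.617), once the median change of the neighbouring genes on chromosome 18 was removed. The authors' deposited table gave -0.60 with the sign turned, at an adjusted p-value of 8.12e-05. SMAD6, which acts mainly against BMP receptors, had 12.9, 10.5 and 16.0 CPM in p53 WT and 5.73, 10.8 and 9.82 CPM in p53 KO. The groups overlapped by p53 WT replicate 2 and p53 KO replicate 2. Its log2 fold change was -0.58 (SE 0.24, adjusted p = 0.0906), with a 95% interval from -1.10 to -0.07. It passed without p53 KO replicate 2 (-0.78, adjusted p = 0.0374), and it was -0.34 (adjusted p = 0.298) without p53 KO replicate 1. Its adjusted p ran from 0.0191 to 0.311 over all alternatives.

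BMP4, a ligand of early bone and mesoderm formation, had 12.3, 10.3 and 8.96 CPM in p53 WT and 18.3, 12.4 and 10.1 CPM in p53 KO. The groups overlapped, and p53 KO replicate 1 stood above the rest. The log2 fold change was 0.38 (95% interval -0.09 to 0.84, adjusted p = 0.237), and 0.10 (adjusted p = 0.79) without p53 KO replicate 1. It passed, at 1.05 (adjusted p = 0.00346), with the median change of neighbouring genes removed. BMP7, a ligand of kidney and bone development, had 6.11, 5.44 and 5.75 CPM in p53 WT and 8.46, 5.88 and 8.77 CPM in p53 KO. Here p53 KO replicate 2 lay inside the p53 WT range, and the log2 fold change was 0.41 (95% interval -0.05 to 0.88, adjusted p = 0.191). BMP2, a strong inducer of bone, had 5.29, 4.97 and 6.08 CPM in p53 WT and 3.77, 5.52 and 4.51 CPM in p53 KO. The groups overlapped, at a log2 fold change of -0.24 (95% interval -0.75 to 0.27, adjusted p = 0.52).

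GREM1, the secreted antagonist, had the lowest counts of the 10 genes. The stricter filter of 1 CPM in 3 libraries left it out. There were 27, 23 and 16 counts in p53 WT and 130, 47 and 12 counts in p53 KO. These came to 0.343, 0.342 and 0.658 CPM in p53 WT and 1.76, 1.15 and 0.601 CPM in p53 KO. Of the p53 KO libraries, replicates 1 and 2 were above all p53 WT libraries, while replicate 3 was not. The log2 fold change was 1.45 (SE 0.59, 95% interval 0.18 to 2.73), the widest interval of the 10 genes, and did not pass (adjusted p = 0.0909). It passed with limma-voom (1.78, adjusted p = 0.0243) and without p53 KO replicate 3 (1.76, adjusted p = 0.0386), and it was 1.02 (adjusted p = 0.348, the highest of its alternatives) without p53 KO replicate 1. GREM1 shares 188 exon bases with a gene on the opposite strand and ID2 shares 38, both in GENCODE 29. The strand setting of the count is not given, so such reads cannot be assigned with certainty.

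Several of the 10 genes lie where their chromosomal neighbours also differed between the groups. For each gene the 50 nearest protein-coding genes in RefSeq order were taken, among those averaging 2 CPM or more. Their median entered the fit as a fixed value. Intervals and adjusted p-values with it removed therefore leave out the uncertainty of the median itself. Around SMAD7, on chromosome 18, 34 of the 50 were lower in p53 KO and 0 higher, with a median log2 fold change of -0.52, close to the -0.63 of SMAD7 itself. The -0.10 that SMAD7 had with this median removed in the fit had a 95% interval from -0.35 to 0.15, and this was the only alternative of 14 in which its call was lost. BMP4, on chromosome 14, went the other way from its surroundings. There 41 of the 50 neighbours were lower and 1 higher, with a median of -0.68, and with it taken off BMP4 had a log2 fold change of 1.05 (adjusted p = 0.00346). The neighbours' median was not removed in fits that left out libraries, and the adjusted p of BMP4 ran from 0.00346 to 0.79 over all alternatives. Neighbours of BMP7, on chromosome 20, had a median of 0.42 (25 higher, 6 lower), and BMP7 came to -0.0049 (adjusted p = 0.991). ID2, on chromosome 2, lay among 28 lower and 5 higher neighbours with a median of -0.38, and came to 0.28 (adjusted p = 0.424). ID2 lies near the start of that chromosome, so its 50 neighbours were uneven, with only number 11 (RNF144A) and those before it on 1 side.

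The remaining genes lay among neighbours with medians between -0.14 (BMP2) and 0.12 (SMAD6). ID4 kept its call once the neighbours' median was removed (-0.86, adjusted p = 0.0179). ID3 did not (0.29, adjusted p = 0.0941), and SMAD6 had -0.70 (adjusted p = 0.0535). Under this setting 1 gene was higher (BMP4) and 1 lower (ID4) relative to their neighbours, beside 19.8% of all tested genes called in either direction. The change of BMP4 itself, 0.38, was not called. The cause of the shared shifts of neighbouring genes was not tested.

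**Figure D3:**
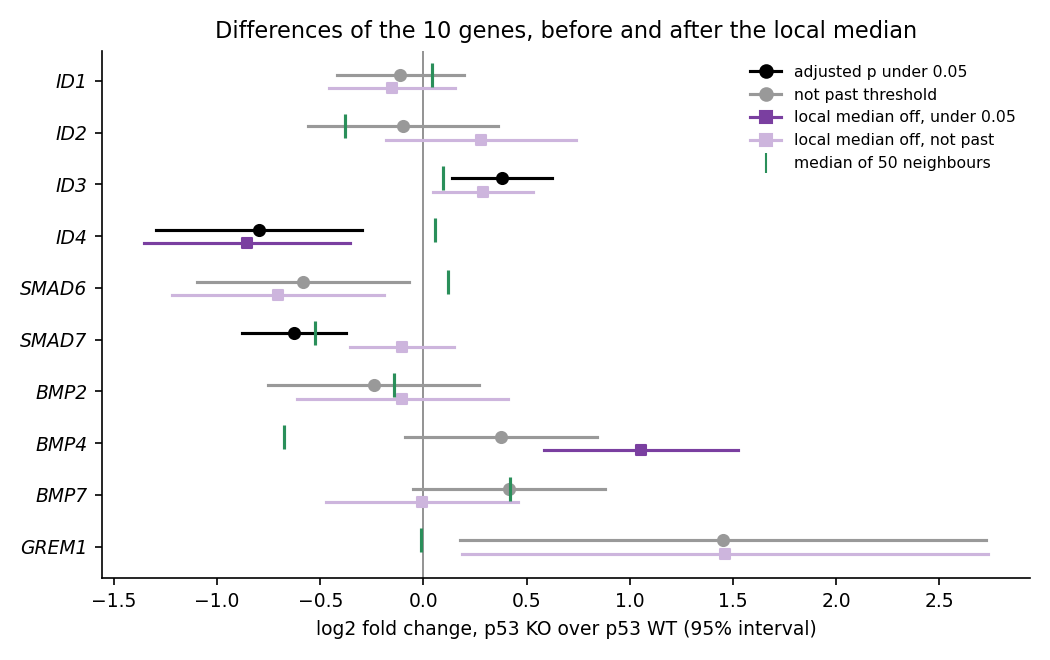
Log2 fold changes (p53 KO over p53 WT) with 95% intervals for the 10 genes, as tested (circles) and with the median of the 50 neighbouring genes taken off (squares); green ticks mark that median. SMAD7 moves from -0.63 to -0.10 and BMP4 from 0.38 to 1.05, while ID4 stays low (-0.80 and -0.86).

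**Figure D4:**
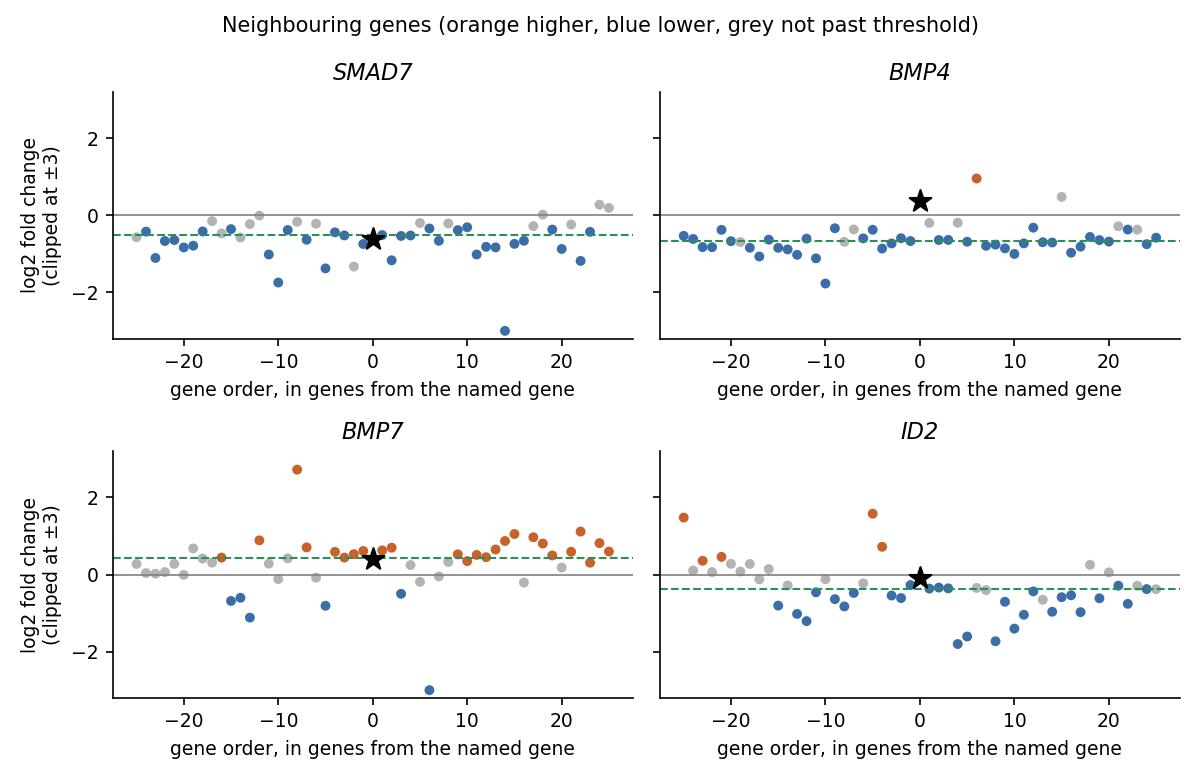
Log2 fold change (p53 KO over p53 WT, clipped at 3 in size) of the 50 neighbouring genes in chromosomal order around SMAD7, BMP4, BMP7 and ID2, with the named gene as a star and the neighbours' median as a dashed line. The star of SMAD7 lies near its line at -0.52, and that of BMP4 above all but 2 of its neighbours. Every star is drawn in the middle of its window, which is out of place for ID2. ID2 lies between number 11 (RNF144A) and number 12 (KIDINS220) of its 50, so its axis does not give distance in genes.

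Other genes of the pathway were read from the same fit, in 7 lists of 61 genes by role, of which 47 were tested. Of these 47, 5 were higher and 10 lower in p53 KO (31.9% called, beside 26.5% of all tested genes), with a median log2 fold change of -0.062. In the authors' deposited table, CRIM1, BMPR2, BAMBI and SKIL of these called genes did not pass (adjusted p-values of 0.121, 0.36, 0.0648 and 0.053). The other called genes had adjusted p-values under 0.05 there. Once the neighbours' median was removed, the call remained for 4 of the 5 (not SKIL) and 6 of the 10 (not CRIM1, BMPR2, PPM1A or SMAD4). RGMA and TWSG1 were newly called lower, and TCF4 higher, relative to their neighbours. Their own log2 fold changes of -0.21, -0.075 and 0.016 were not called. Under this setting 19.8% of all tested genes were called.

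Among 12 other ligands 6 were tested, 1 rose and 1 fell. BMP6, a ligand known for controlling hepcidin and also made by bone cells, had 15.5, 15.4 and 12.1 CPM in p53 WT and 2.55, 3.30 and 3.41 CPM in p53 KO. Every p53 KO library was far below every p53 WT library, a 4.70-fold decrease (log2 fold change -2.23, SE 0.21, adjusted p = 3.29e-06). BMP5, a skeletal ligand, had 24.2, 22.5 and 20.1 CPM in p53 WT and 41.9, 42.2 and 42.2 CPM in p53 KO, and rose 1.89-fold (log2 fold change 0.92, SE 0.12, adjusted p = 6.66e-05). Per kilobase, BMP5 and BMP6 were at 5.63 and 5.15 CPM per kb in p53 WT and at 10.6 and 1.11 in p53 KO, against 3.41 and 4.41 for BMP4. BMP5 had the highest mean per kilobase of all listed ligands in both groups, though in p53 WT its library range overlapped that of BMP6.

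Of 9 tested receptors and co-receptors, 3 fell. RGMB, a membrane-anchored BMP co-receptor, fell from 133 ± 7.16 to 47.5 ± 8.64 CPM (SD, n = 3; log2 fold change -1.48, adjusted p = 1.67e-06). ACVR1, a type I receptor, fell from 30.6 ± 4.00 to 20.8 ± 1.34 CPM (SD, n = 3), which is -0.56 on the log2 scale (adjusted p = 0.00739), with its call lost without p53 WT replicate 2 (-0.47, adjusted p = 0.0615). BMPR2, the type II receptor, had -0.41 (adjusted p = 0.043), with groups that overlapped, and its call was lost when single libraries were omitted (p53 WT replicate 2 or 3, or p53 KO replicate 1 or 3), at -0.33, -0.42, -0.42 and -0.26. It was also lost once the neighbours' median was removed (-0.38, adjusted p = 0.0724). Among 4 signal-carrying SMADs only SMAD4, the common partner, passed. It fell from 55.0 ± 6.76 to 31.1 ± 3.14 CPM (SD, n = 3), which is -0.82 on the log2 scale (adjusted p = 0.000299). SMAD4 lies on chromosome 18, as SMAD7 does, among neighbours with a median of -0.52, and had -0.30 (adjusted p = 0.123) once the neighbours' median was removed. SMAD1, SMAD5 and SMAD9, the BMP-specific SMADs, had 0.020, -0.22 and 0.30 (adjusted p = 0.947, 0.289 and 0.24).

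Of 11 tested secreted antagonists and modulators 1 rose and 2 fell. NOG, which encodes noggin, a BMP trap that was far more abundant than GREM1 per kilobase (24.5 against 0.0306 CPM per kb in p53 WT), fell from 46.4 ± 4.90 to 26.6 ± 0.913 CPM (SD, n = 3; log2 fold change -0.80, adjusted p = 0.000211). CRIM1, a transmembrane BMP-binding protein, had -0.54 (adjusted p = 0.00418), and -0.29 (adjusted p = 0.108) once the neighbours' median was removed. CHRDL1, a chordin-like antagonist, rose from 3.52 ± 0.857 to 9.06 ± 0.954 CPM (SD, n = 3), which is 1.36 on the log2 scale (adjusted p = 0.000583).

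Of 9 inhibitors inside the cell or in its membrane, 2 rose and 2 fell. SMURF2, a ubiquitin ligase that SMAD7 brings to receptors, fell from 189 ± 6.81 to 84.7 ± 1.27 CPM (SD, n = 3; log2 fold change -1.16, adjusted p = 7.89e-07), and it had -0.87 once the neighbours' median was removed. PPM1A, a phosphatase of SMADs, had -0.87 (adjusted p = 3.26e-05) in the lower surroundings of chromosome 14, and -0.29 (adjusted p = 0.0663) once the neighbours' median was removed. BAMBI, a decoy receptor, had 0.65 (adjusted p = 0.031), and its call was lost without p53 WT replicate 2 or 3 or p53 KO replicate 3 (0.58, 0.61 and 0.49) and with a replicate block (0.64, adjusted p = 0.0525). SKIL, a SMAD corepressor named because it completes the count, had 0.49 (adjusted p = 0.0282). Its groups overlapped, as p53 KO replicate 3 (76.7 CPM) lay inside the p53 WT range (64.6 to 83.4 CPM). The call of SKIL was lost without p53 WT replicate 1 or 3 or p53 KO replicate 1 or 2 (0.39, 0.48, 0.40 and 0.38). It was also lost once the neighbours' median was removed (0.26, adjusted p = 0.27).

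Of 5 tested transcription factor genes that BMPs can induce, ATOH8 rose and RUNX2 fell. ATOH8, a basic helix-loop-helix factor, had 0.521, 0.342 and 0.781 CPM in p53 WT and 4.16, 7.45 and 3.91 CPM in p53 KO. No library of either group came near the other group, at a 9.91-fold increase (log2 fold change 3.31, SE 0.40, adjusted p = 3.58e-05). The p53 WT counts were low (41, 23 and 19), so the size of the fold is loosely set (95% interval 2.45 to 4.17 on the log2 scale). RUNX2, the master regulator of osteoblasts, fell from 11.7 ± 1.41 to 7.26 ± 1.75 CPM (SD, n = 3), which is -0.69 on the log2 scale (adjusted p = 0.0234). Its call was lost without p53 WT replicate 3, p53 KO replicate 1 or p53 KO replicate 3, at -0.60, -0.56 and -0.60. The 3 E protein genes, whose products ID proteins bind, had log2 fold changes of -0.089 (TCF3, adjusted p = 0.569), 0.016 (TCF4, adjusted p = 0.965) and -0.070 (TCF12, adjusted p = 0.776). TCF3 stood at 177 ± 4.65 CPM in p53 WT and 166 ± 16.4 CPM in p53 KO (SD, n = 3). Once the neighbours' median of -0.59 was removed, TCF4 was called higher relative to its neighbours (0.60, adjusted p = 0.0328). Its own mean level was 23.5 CPM in both groups.

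**Figure D5:**
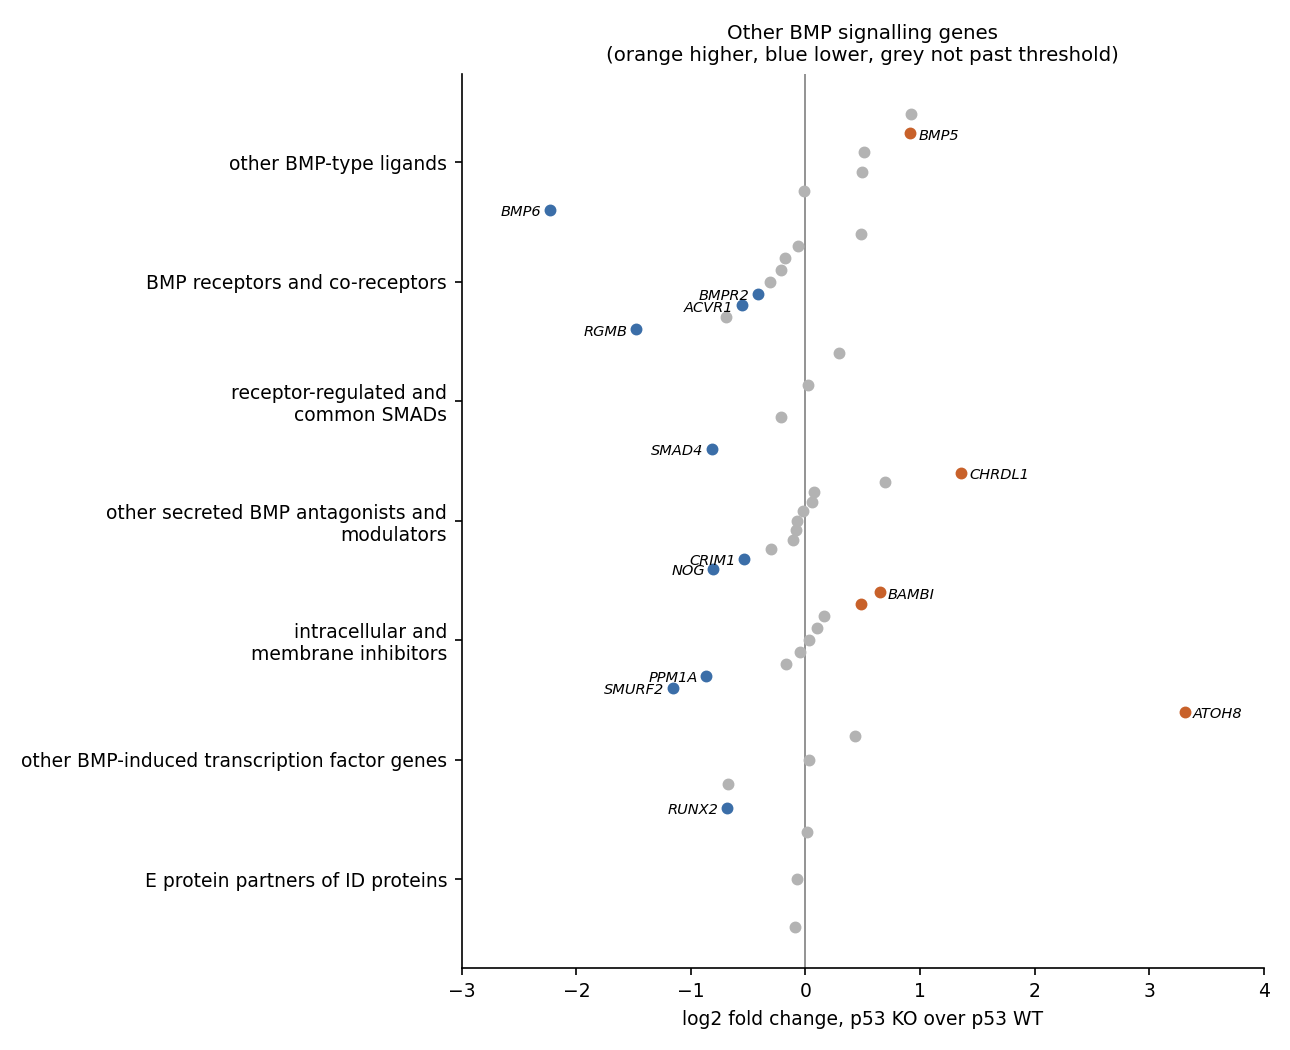
Log2 fold changes (p53 KO over p53 WT) of the 47 tested pathway genes outside the 10, in rows by role, with the called genes that the text's rule names labelled. ATOH8 at 3.31 and BMP6 at -2.23 lie farthest from 0.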

How the data were processed

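The table of raw counts that the authors deposited has 55882 gene symbols and 6 libraries, all of which were used. The submitters' processing notes name fastp 0.21.0, HISAT2 2.1.0, DESeq2 1.3.6 and GRCh37 (hg19). Which counting tool, annotation and strand setting were used is not given in the sources used here. A second table deposited by the authors compares the groups by mean signal (normalised counts), log2 fold change, test score and p-values. Its fold change has the sign opposite to its test score for every gene and is positive for CDKN1A, and was therefore read as p53 WT over p53 KO.

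The quasi-likelihood F-test of edgeR 4.0.16 (R 4.3.3) was fitted to the counts of all 22352 genes kept by filterByExpr, with TMM factors, robust estimation and 3 against 3 libraries. An adjusted p (Benjamini-Hochberg) under 0.05 was called. The standard error is the size of the log2 fold change over the square root of F. CPM values are TMM-scaled and given as mean ± SD. The fit was tested on simulated data. No molecular identifiers are described, so limits from a count of 0 cover counting error alone.

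The genes, lists and tests were chosen with earlier results of these data known. Named were the 10 genes, CDKN1A, and of each pathway list up to 3 called genes with the largest change and a mean of at least 1 CPM, or otherwise its most abundant gene. All pathway symbols matched, and 1 endothelial marker symbol did not and was not used here. Alternatives were RLE factors, no composition factors, no filter, a minimum of 1 CPM in 3 libraries, limma-voom (limma 3.58.1), DESeq2 1.42.0, an adjusted p under 0.01, a replicate block, the local median of 50 neighbours as an offset, and each library left out. Gene order and upstream sequences came from RefSeq (GRCh38.p14) and exon lengths from GENCODE 29, so positions on the authors' build are not given. The RNA level of the knocked-out gene itself is not reported here.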

Additional observations from a re-analysis of the deposited data

How the results depend on the processing

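Leaving out 1 library gave 0 to 2 of the 10 genes higher and 1 to 2 lower, where all libraries gave 1 and 2. The count over all genes then lay between 4160 and 6059, and that of pathway genes between 3 and 5 higher and between 8 and 10 lower. With an adjusted p under 0.01, 3758 genes passed over the whole table, 0 of the 10 genes were higher and 1 (SMAD7) lower, and 3 pathway genes were higher. Limma-voom called 2 of the 10 genes higher, ID3 and GREM1. Once the neighbours' median was removed, 1 of the 10 genes was lower, and the signs of ID2 (0.28), BMP7 (-0.0049) and TCF3 (0.26) turned, none of them called. With 1 library left out ID1 lay between -0.24 and 0.036, positive without p53 WT replicate 1, and ID2 between -0.22 and 0.048, positive without p53 KO replicate 1, neither of them called. SMAD6 also passed without the filter (-0.60, adjusted p = 0.0191) and with limma-voom (-0.68, adjusted p = 0.0321), and BMPR2 lost its call without composition factors (-0.39, adjusted p = 0.0768). BMP2 kept its sign and stayed uncalled in all 14 alternatives. ID1, ID2 and BMP7 also stayed uncalled in all 14, but the sign of each turned in at least 1.

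The log2 difference of the ID1 to ID3 ratio lay between -0.59 and -0.41 when 1 library was left out, a check chosen after seeing the data. With the replicate number as a block, 1 of the 10 genes was higher and 2 lower, 4 and 10 pathway genes were, and 5159 genes passed over the whole table. Libraries with the same number did not deviate together throughout (r = -0.036, 0.13 and -0.21 across 15124 genes), nor did every library correlate best with its own number. The numbers were therefore not taken to pair the samples. Correlations between different numbers were larger in size, such as p53 WT 1 with p53 KO 3 (0.38) and with p53 KO 2 (-0.40), and p53 WT 3 with p53 KO 2 (0.30). The block ended no call beside that of BAMBI among the genes named. Depth limits GREM1 most, with 12 counts in the shallowest library.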
